A study of Mus musculus with 7 samples.

Results

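The mouse heavy chain V gene family IGHV1 was examined here without its 11 genes IGHV1-26, 1-50, 1-53, 1-55, 1-64, 1-69, 1-72, 1-76, 1-80, 1-81 and 1-82, which left 37 genes. A cell belonged to the set if it carried exactly 1 productive heavy chain and the first V name of that chain, without its allele, was one of the 37. This gave 4914 of 17381 cells in 6 libraries, against 5171 cells of the 11 IGHV1 genes left out. The set was defined by gene name, not by a measured value.

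The cells came from female mice aged 10 to 11 months, either wild type (WT) or 5xFAD, a transgenic line with transgenes expressed in neurons, in which amyloid accumulates in the brain. Deep cervical (dCLN), superficial cervical (sCLN) and inguinal (iLN) lymph nodes were sampled in both genotypes, and each pairing of a node with a genotype is 1 library, in which hashtagged cells of several tubes were combined. The number of animals behind a library and whether nodes share animals are not given, so values of different libraries may not be independent, and a difference seen in a single node rests on 1 library per genotype. The shares below have exact Clopper-Pearson 95% intervals, which cover counting error only, and cells of 1 clone are not independent draws.

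IGHV1, also called J558, is the largest V gene family of the mouse. Its genes lie in the part of the heavy chain locus far from the D and J segments, and their numbers run with the distance from those segments. A B cell joins 1 V gene to a D and a J segment, and the junction becomes CDR3, the most variable loop of the antibody. CDR1 and CDR2 are read from the V gene itself. Naive B cells carry IgM and IgD, and after activation a cell can switch to IgG, IgA or IgE and mutate its V gene.

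All 37 genes were annotated as V genes, none as a pseudogene, on the minus strand of chromosome 12 (GENCODE M21, GRCm38), and the V sequence up to the conserved cysteine codon at which CDR3 begins was the same in the germline column of the files and in the annotated transcript for 37 of 37. Their numbers followed their positions. Between members, identity over that stretch ranged from 72.6% to 98.6%, with a median of 84.5%. The V genes differ in what they hand to CDR3. The last 24 bases up to the cysteine codon are shown in lower case for 6 genes, followed in capitals by the bases that the gene offers to CDR3. They are the most used gene, IGHV1-9, and every member with a different end that had more than 1 cell, with IGHV1-15 standing for the 3 genes with the same capitals (IGHV1-5, IGHV1-15 and IGHV1-23).
IGHV1-9: gaggactctgccatctattactgtGCAAGA
IGHV1-15: gaggactctgccgtctattactgtACAAGA
IGHV1-11: gaggaccctgctgtctattactgtGGAAGG
IGHV1-47: gatgactctgctgtttattactgtGCAAGG
IGHV1-74: gaggactctgcggtctattactgtGCAATA
IGHV1-62-2: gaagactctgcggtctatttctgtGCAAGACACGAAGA
Of the 37 genes, 30 began with the capitals of IGHV1-9. IGHV1-62-2 (chr12:115446409-115446869) differed from all others in the length of this end, with 14 bases after the cysteine codon where 35 genes had 6 and IGHV1-62-3, seen in 1 cell, had 5.

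The V sequences, up to the cysteine codon, of IGHV1-62-2, of IGHV1-34 and of IGHV1-22 are shown because results below turn on the former pair, and IGHV1-22 is the gene nearest in sequence to IGHV1-34. CDR1 and CDR2 are in capitals.
IGHV1-62-2: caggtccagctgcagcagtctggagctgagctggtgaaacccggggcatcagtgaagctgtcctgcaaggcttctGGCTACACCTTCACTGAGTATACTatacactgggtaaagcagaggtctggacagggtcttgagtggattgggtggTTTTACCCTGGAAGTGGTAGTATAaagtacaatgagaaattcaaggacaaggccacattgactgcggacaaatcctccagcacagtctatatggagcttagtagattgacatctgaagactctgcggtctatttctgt
IGHV1-34: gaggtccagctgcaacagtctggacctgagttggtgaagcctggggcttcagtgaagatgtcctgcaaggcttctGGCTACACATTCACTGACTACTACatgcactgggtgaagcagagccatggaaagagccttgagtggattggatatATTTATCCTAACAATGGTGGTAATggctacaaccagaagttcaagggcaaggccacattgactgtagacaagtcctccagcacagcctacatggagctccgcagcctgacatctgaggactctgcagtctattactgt
IGHV1-22: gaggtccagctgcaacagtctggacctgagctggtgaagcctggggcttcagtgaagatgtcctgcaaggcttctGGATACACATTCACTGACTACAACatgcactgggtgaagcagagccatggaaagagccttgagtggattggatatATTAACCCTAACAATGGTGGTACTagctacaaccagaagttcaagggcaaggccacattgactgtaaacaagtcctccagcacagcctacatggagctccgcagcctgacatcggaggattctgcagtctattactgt
IGHV1-34 (chr12:114851190-114851660) and IGHV1-22 (chr12:114746273-114746706) differed at 10 bases, an identity of 96.5%. The nearest gene to IGHV1-62-2 among all IGHV1 genes seen was IGHV1-84, at 87.5%. By the V call used here IGHV1-71, annotated at chr12:115742205-115742647, could not be told from IGHV1-62-2, since all 176 cells carried both names. A second V call deposited with the cells named IGHV1-62-2 in 93 of the 176 and was not used to split them. Values given below for IGHV1-62-2 may therefore mix cells of 2 genes.

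Several members share a CDR loop. The largest group with the same CDR1 was IGHV1-52, IGHV1-59, IGHV1-61, IGHV1-62-3 and IGHV1-74. A CDR1 was also shared by IGHV1-75, IGHV1-77 and IGHV1-84, and by IGHV1-31, IGHV1-42 and IGHV1-43. So it was by IGHV1-18 and IGHV1-22, by IGHV1-15 and IGHV1-23, and by IGHV1-20 and IGHV1-37. The same CDR2 was present in 5 pairs, and IGHV1-42 with IGHV1-43 and IGHV1-20 with IGHV1-37 shared both loops. These pairs are printed once each, as the parts of the binding site that cannot separate their cells.
IGHV1-4 and IGHV1-7: attaatcctagcagtggttatact
IGHV1-20 and IGHV1-37: attaatccttacaatggtgatact
IGHV1-42 and IGHV1-43: attaatcctagcactggtggtact
IGHV1-56 and IGHV1-75: atttttcctggaagtggtagtact
IGHV1-78 and IGHV1-85: atttatcctagagatggtagtact
The members of a pair were not used alike. IGHV1-42 was found in 163 cells and IGHV1-43 in 10, IGHV1-75 in 278 and IGHV1-56 in 10, and IGHV1-20 in 38 and IGHV1-37 in 13. IGHV1-78 and IGHV1-85 were close, at 132 and 129 cells.

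The 37 genes together supplied an almost fixed share of each repertoire. They made up 28.0% of cells in the WT dCLN (945 of 3374), 28.1% in the 5xFAD dCLN (1096 of 3904), 27.8% in the WT sCLN (955 of 3440), 29.6% in the 5xFAD sCLN (697 of 2356), 28.7% in the WT iLN (631 of 2200) and 28.0% in the 5xFAD iLN (590 of 2107). The interval of every library overlapped with that of every other. Subtracting the WT from the 5xFAD share gave 0.0655 percentage points for the dCLN, 1.82 for the sCLN and -0.680 for the iLN (mean 0.403 ± 1.28, SD, n = 3 nodes; exact two-sided sign-flip test p = 0.75, where 0.25 is the smallest possible).

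Within the set, use was uneven. The 10 most used genes held 2997 cells, or 61% of the set, and 12 genes reached 1% of all cells. The most used was IGHV1-9 with 444 cells, at 2.64% in the WT dCLN, 2.54% in the 5xFAD dCLN, 2.27% in the WT sCLN, 2.55% in the 5xFAD sCLN, 2.86% in the WT iLN and 2.61% in the 5xFAD iLN. IGHV1-18 followed with 397 cells, at 2.19%, 2.61%, 1.80%, 2.42%, 2.45% and 2.28% in the same order of libraries. No library stood apart for either gene. IGHV1-19 had 312 cells (1.42%, 1.59%, 2.06%, 1.95%, 1.73% and 2.23%) and IGHV1-15 had 307 (1.81%, 1.51%, 1.69%, 1.70%, 2.23% and 1.90%). IGHV1-39 had 290 cells, with 1.42%, 1.69%, 1.42%, 2.04%, 1.95% and 1.71%. All of these genes but IGHV1-39 lie among the numbers up to 30, the part of the family nearest to the D segments.

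The next 3 genes had 278 cells each. IGHV1-22 ranged from 1.45% to 1.78% over the 6 libraries, in the order 1.45%, 1.64%, 1.60%, 1.78%, 1.68% and 1.47%. IGHV1-52 was the steadiest of the 10, at 1.69%, 1.69%, 1.60%, 1.49%, 1.5% and 1.52%. IGHV1-75 was lower in the 5xFAD library of every node, at 1.87% against 1.61% (dCLN), 1.74% against 1.40% (sCLN) and 1.45% against 1.28% (iLN), with overlapping intervals. IGHV1-5 (228 cells) was at 1.42%, 1.20%, 1.34%, 1.53%, 1.00% and 1.38%, and IGHV1-74 (185 cells) at 0.978%, 0.948%, 1.13%, 0.806%, 1.5% and 1.14%. Over all cells, the intervals of neighbours in this order overlapped, except between IGHV1-18 (2.28%, 2.07 to 2.52) and IGHV1-19 (1.80%, 1.60 to 2.00).

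**Figure D1:**
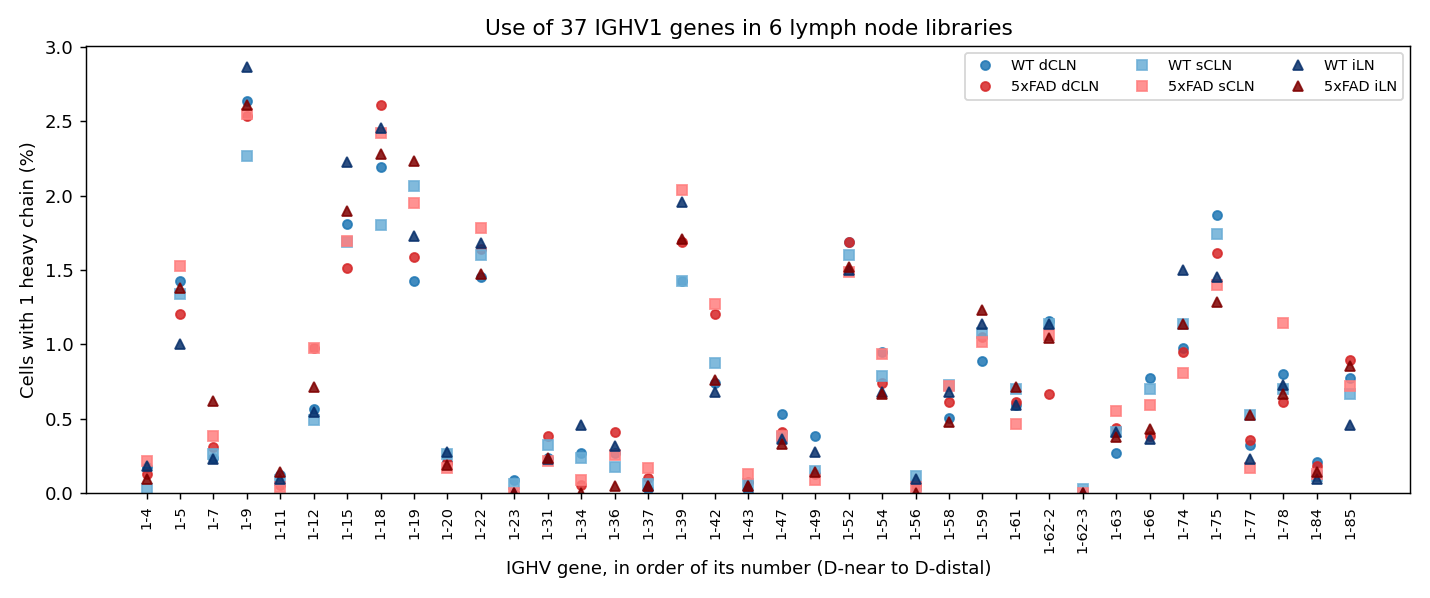
Share of single heavy chain cells (%) that used each of the 37 genes, in order of gene number, with 1 point for each of the 6 libraries. IGHV1-9 and IGHV1-18 reached the highest shares, between 1.80% and 2.86%, and low and high genes alternate along the locus.

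The other 27 genes ran from 183 cells to 1. IGHV1-59 had 183, IGHV1-62-2 176, IGHV1-42 163, IGHV1-54 139, IGHV1-78 132, IGHV1-85 129, IGHV1-12 124, IGHV1-58 108 and IGHV1-61 107. IGHV1-66 had 96, IGHV1-47 71, IGHV1-63 70, IGHV1-77 63 and IGHV1-7 56. IGHV1-31 had 49 cells, IGHV1-36 45, IGHV1-20 38, IGHV1-49 34, IGHV1-34 31, IGHV1-84 26 and IGHV1-4 23. The rarest were IGHV1-11 with 15, IGHV1-37 with 13, IGHV1-43 and IGHV1-56 with 10 each, IGHV1-23 with 5 and IGHV1-62-3 with 1. The 5 cells of IGHV1-23 were all from WT libraries (3 from the dCLN and 2 from the sCLN), and so was the cell of IGHV1-62-3. IGHV1-23 differs from the 307-cell gene IGHV1-15 at 5 bases, and IGHV1-62-3 differs at 2 from IGHV1-72, one of the genes left out, so a call of either rests on few positions.

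In 5 more annotated IGHV1 genes (IGHV1-16, 1-24, 1-62-1, 1-67 and 1-71) no cell had the gene as its first name. A count of 0 in 17381 cells allows a share of up to 0.0173%, at 3 counts. For IGHV1-71 this limit says nothing, because any cells of it stand under IGHV1-62-2.

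The order of the genes by use was similar in the 6 libraries. Over the 37 genes the Spearman rank correlation between 2 libraries ranged from 0.917, for the WT iLN and the 5xFAD iLN, to 0.970, and the Pearson correlation from 0.941 to 0.969. These are descriptions over genes that share a locus, and the pairs include libraries of different nodes and genotypes. Use had little relation to position, with a Spearman rho of -0.067 between number of cells and place in the locus over the 37 genes. The 12 genes numbered up to 30 held 2227 cells (186 per gene), the 14 from 31 to 60 held 1424 (102 per gene) and the 11 above 60 held 1263 (115 per gene). The last group was between 6.71% and 7.85% of the cells of a library and the first between 11.9% and 13.7%.

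One member, IGHV1-34, had counting intervals that lay apart between genotypes, in the iLN. In the dCLN, IGHV1-34 was used by 9 of 3374 WT and 2 of 3904 5xFAD cells, in the sCLN by 8 of 3440 and 2 of 2356, and in the iLN by 10 of 2200 and 0 of 2107. Every WT library was above every 5xFAD library. In the iLN the shares were 0.455% (0.218 to 0.834) and 0% (up to 0.175%), with intervals apart, whereas in the dCLN (0.267% and 0.0512%) and sCLN (0.233% and 0.0849%) the intervals overlapped. The mean difference over the nodes was -0.273 percentage points ± 0.161 (SD, n = 3 nodes; exact sign-flip test p = 0.25, the smallest possible). The 31 cells belonged to 31 clones, so no expanded clone added to these counts. Switched cells were 1 of the 2 in the 5xFAD dCLN and 2 of the 2 in the 5xFAD sCLN, against 1 of the 9 in the WT dCLN. The WT sCLN and WT iLN had 0.

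Intervals were apart in 1.64% of the 61 IGHV genes tested in the iLN, that is in IGHV1-34 alone. In the dCLN this was 1.39% of 72 genes and in the sCLN 1.49% of 67, in both cases for a gene outside the set. With a minimum of 30 cells per gene IGHV1-34 was no longer tested, and the count of members fell to 0. With the 3 nodes pooled, the genes beside it among the members did not show the same split. IGHV1-31 was found in 24 WT and 25 5xFAD cells and IGHV1-36 in 22 and 23. In the iLN alone IGHV1-31 was in 5 and 5, but IGHV1-36 was in 7 WT and 1 5xFAD cells, the direction of IGHV1-34. The dCLN ran the other way for IGHV1-36, with 9 WT and 16 5xFAD cells. IGHV1-22, the nearest in sequence, was in 141 WT and 137 5xFAD cells over the 3 nodes. The 31 cells of IGHV1-34 were called with the same allele.

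**Figure D2:**
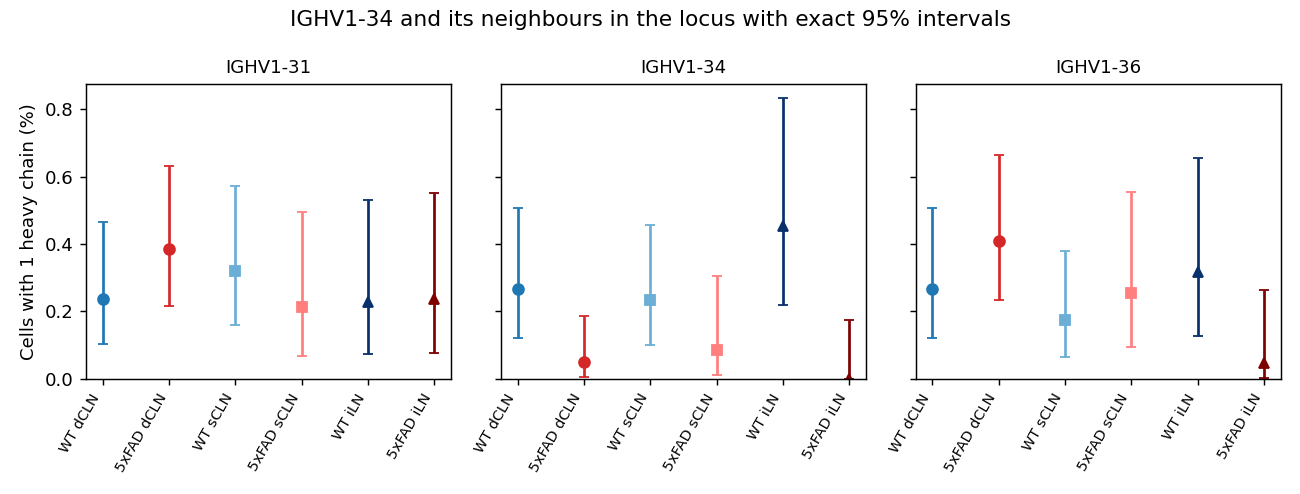
Share of single heavy chain cells (%) that used IGHV1-31, IGHV1-34 and IGHV1-36, neighbours in number among the members, with exact 95% intervals, 1 point per library. IGHV1-34 was at 0.455% in the WT iLN and 0% in the 5xFAD iLN, and its 3 WT points lie above its 3 5xFAD points.

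Of the 35 members with at least 10 cells in all, 12 differed between genotypes with the same sign in the 3 nodes, where 28.6% of all 91 IGHV genes did. IGHV1-12, IGHV1-42, IGHV1-7, IGHV1-37, IGHV1-43 and IGHV1-85 were higher in each 5xFAD library, and IGHV1-34, IGHV1-75, IGHV1-74, IGHV1-62-2, IGHV1-49 and IGHV1-20 lower. The largest mean differences beside IGHV1-34 were those of IGHV1-12 (0.353 percentage points ± 0.165), IGHV1-42 (0.314 ± 0.207) and IGHV1-75 (-0.257 ± 0.0852), each with SD and n = 3 nodes. For each of these 12 the exact sign-flip test gives p = 0.25 and can give no less. Between nodes of 1 genotype no member had intervals apart. Over all IGHV genes the count was 0% in 5 of the 6 node comparisons (62 to 70 genes tested) and 1.45% of 69 genes for the WT dCLN against the WT sCLN.

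Most cells of the set were unswitched. IgG, IgA or IgE was called in 122 of 4855 cells with a constant region, 2.51% (2.09 to 2.99), against 3.58% (3.26 to 3.92) of all other cells pooled. Per library the set's share was 2.27% in the WT dCLN (21 cells), 3.22% in the 5xFAD dCLN (35), 3.16% in the WT sCLN (30), 2.74% in the 5xFAD sCLN (19), 1.13% in the WT iLN (7) and 1.72% in the 5xFAD iLN (10). It was lower than in the other cells of the same library in 5 of 6 libraries, with a mean difference of -0.865 percentage points ± 1.13 (SD, n = 6 libraries; exact two-sided sign-flip test p = 0.156, Benjamini-Hochberg adjusted p = 0.240 over 20 comparisons). The exception was the 5xFAD iLN, at 0.72 percentage points above the others. Against the 11 other IGHV1 genes the set was higher in 3 libraries and lower in 3. The mean difference there was -0.867 points (± 1.29, SD; exact p = 0.25, adjusted p = 0.333), with the largest, -3.12, in the WT dCLN.

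Among the switched cells, IgG2b (40) and IgG2c (39) were the most frequent, followed by IgG1 (25), IgA (15) and IgG3 (3), with 0 IgE. IgG1 was absent from the 21 switched cells of the WT dCLN and made up 9 of 35 in the 5xFAD dCLN. Of those 9, 4 belong to 1 clone described below.

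Single genes lay on both sides of the set's share. Among members with at least 100 cells, IGHV1-42 had the highest switched share, 5.59% (2.59 to 10.3), with 1, 0, 3, 4, 1 and 0 switched cells in the WT dCLN, 5xFAD dCLN, WT sCLN, 5xFAD sCLN, WT iLN and 5xFAD iLN. Of the 4 cells in the 5xFAD sCLN 3 were from 1 clone, and 2 of the 3 in the WT sCLN were from another, so the interval is too narrow. IGHV1-12 had 4.07% (1.33 to 9.23) from 1, 2, 1, 1, 0 and 0 cells, and IGHV1-58 had 3.70% (1.02 to 9.21) from 0, 2, 1, 0, 1 and 0 cells. At the low end stood IGHV1-22, with 1 switched cell in 273, 0.366% (0.00927 to 2.02), found in the 5xFAD dCLN. IGHV1-74 had 0.543% (0.0138 to 2.99) from 1 cell, also in the 5xFAD dCLN, and IGHV1-61 0.971% (0.0246 to 5.29) from 1 cell in the WT sCLN.

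The switched share of a gene was lower than that of all other cells in each of 6 libraries for 4 of the 19 members with at least 10 cells in every library (IGHV1-22, 1-52, 1-61 and 1-74). Over all 53 such IGHV genes 17% had 1 sign. A library with 0 switched cells counts as lower, and IGHV1-22, IGHV1-61 and IGHV1-74 each had 0 in 5 of 6 libraries, so for genes with few cells the sign says little. In 10 members, together 275 cells, no switched cell was found. The rarer genes IGHV1-84 (4 of 26) and IGHV1-34 (4 of 31) had high shares with wide intervals of 4.36% to 34.9% and 3.63% to 29.8%. For IGHV1-34 the pooled share mixes unlike libraries. Its switched cells were 1 of 9 in the WT dCLN, 1 of 2 in the 5xFAD dCLN and 2 of 2 in the 5xFAD sCLN.

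**Figure D3:**
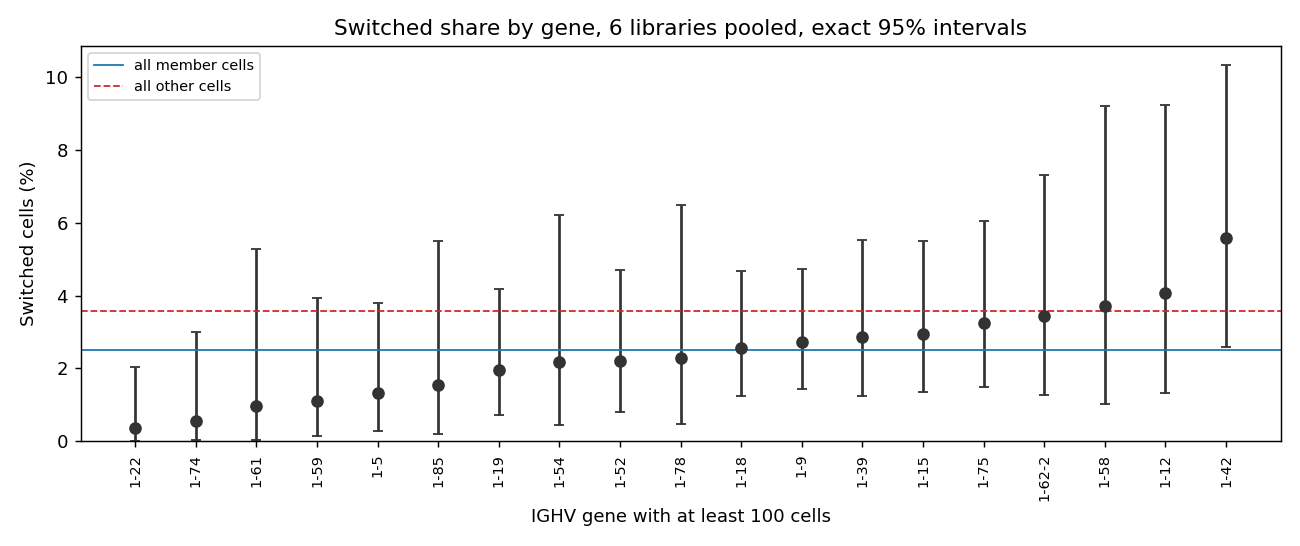
Switched cells (%) for the 19 members with at least 100 cells, 6 libraries pooled, with exact 95% intervals covering counting error only, and horizontal lines for all members (2.51%) and all other cells (3.58%). IGHV1-22 at 0.366% and IGHV1-42 at 5.59% mark the ends.

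V mutation followed the isotype. The mean percentage of V bases that differed from the germline was 0.0127% in unswitched cells of the set, of which 1.71% carried any mismatch, and 3.24% in switched cells. Per library the switched mean was 3.67%, 2.50%, 4.09%, 3.77%, 2.33% and 2.00% in the WT dCLN, 5xFAD dCLN, WT sCLN, 5xFAD sCLN, WT iLN and 5xFAD iLN, with 21, 35, 30, 19, 7 and 10 cells. It exceeded that of other switched cells in the 4 cervical libraries and not in the 2 inguinal ones, by 0.593 percentage points on average (± 0.875, SD, n = 6 libraries; exact p = 0.188, adjusted p = 0.268). Of the members with at least 3 switched cells, IGHV1-78 had the highest mean, 7.13% from 3 cells of 1 clone, and IGHV1-19 had 6.60% from 6 cells, 4 of them from 2 clones. The 4 switched cells of IGHV1-34 had 5.90% (4.08 to 6.80). The 9 of IGHV1-42 had 4.76%, from 1.02% to 10.9%.

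No member showed a mismatch shared by most of its unswitched cells. The most common single mismatch in a member with at least 10 cells was in 8.33% of its unswitched cells (1 of the 12 of IGHV1-37). The threshold for naming a gene had been 50%. Among all IGHV genes, IGHV1-69 and IGHV2-6-1 met it, with 1 position each. IGHV1-69 is one of the IGHV1 genes left out, so the lack of such a mismatch in the set follows in part from how the set was chosen.

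IgD was called in 22.0% of unswitched cells of the set. Per library this was 27.8% in the WT dCLN, 17.1% in the 5xFAD dCLN, 25.5% in the WT sCLN, 19.4% in the 5xFAD sCLN, 21.6% in the WT iLN and 19.8% in the 5xFAD iLN. IgD contigs were more often called in cells with few heavy chain UMIs, the molecules counted per cell. With 1 or 2 UMIs the IgD share of members was 58.6% (109 of 186 cells), with 10 to 20 it was 11.4% (248 of 2174) and with 21 or more 3.10% (17 of 548), and other cells ran alongside at 60.6%, 12.7% and 2.83%. The median heavy chain UMIs of members were 9 in the WT dCLN, 12 in the 5xFAD dCLN, 10 in the WT sCLN and 11 in the 5xFAD sCLN. They were 12 in the WT iLN and 11 in the 5xFAD iLN. An IgD share, also one set between libraries, is therefore to be read with its depth. Against all other cells the mean difference was 0.392 percentage points ± 1.33 (SD, n = 6 libraries; exact p = 0.719, adjusted p = 0.799), and in cells with 5 to 20 UMIs it turned to -0.911 points (exact p = 0.375). Against the 11 other IGHV1 genes it was lower in 6 of 6 libraries, at 21.9% and 25.0% on average, a difference of -3.17 points (± 2.47, SD; exact p = 0.031, the smallest possible, adjusted p = 0.125). The pooled median was 11 heavy chain UMIs in the set and 10 in those genes. In cells with 5 to 20 UMIs the difference was -3.32 points (exact p = 0.0625).

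Among members with at least 100 cells the lowest IgD share was that of IGHV1-62-2, 6.51% (3.29 to 11.3) of 169 unswitched cells. Its shares were 16.2% in the WT dCLN, 4.17% in the 5xFAD dCLN, 2.63% in the WT sCLN, 8.33% in the 5xFAD sCLN, 4.00% in the WT iLN and 0% in the 5xFAD iLN. Each was below that of the other cells of its library, with a mean difference of -15.9 points (± 4.63, SD, n = 6 libraries). IGHV1-15 was second lowest of these at 13.1% (9.47 to 17.5), with 26.2%, 9.09%, 18.2%, 2.50%, 10.2% and 5.26% in the same order, also lower in 6 of 6. These 2 were the members of 19 called by that rule, which 24.5% of the 53 IGHV genes met.

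Both genes had many UMIs per cell, with a median of 15.5 for IGHV1-62-2 and 17 for IGHV1-15. Within cells of 5 to 20 heavy chain UMIs the difference of IGHV1-15 decreased to -3.08 points and no longer had 1 sign, whereas that of IGHV1-62-2 was -13.6 points and did. Among cells with 10 to 20 UMIs IGHV1-62-2 had 5 IgD calls in 105 (4.76%, 1.56 to 10.8) and IGHV1-15 had 22 in 141 (15.6%, 10.0 to 22.7), against 11.4% (10.1 to 12.8) for all members. The interval of IGHV1-62-2 overlapped that of the members slightly. Of the members with at least 100 cells IGHV1-85 was next lowest at 17.3% (11.2 to 25.0), close to IGHV1-5 at 17.3% (12.6 to 22.9), with 23.1%, 17.1%, 22.7%, 12.5%, 10.0% and 11.1%. IGHV1-85 and IGHV1-5 both had a median of 12 heavy chain UMIs.

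Among members with at least 100 cells the highest IgD share was that of IGHV1-61, 36.3% (27 to 46.4), from 42.1%, 26.1%, 34.8%, 45.5%, 16.7% and 57.1% of 11 to 23 cells per library, at a median of 6 heavy chain UMIs. IGHV1-42 had 30.3% (23.1 to 38.2), from 29.2%, 28.3%, 29.6%, 30.8%, 50% and 20%, at a median of 7. IGHV1-18 had 27.6% (23.2 to 32.4), from 26.4%, 18.9%, 36.1%, 20.0%, 33.3% and 39.1%, also at a median of 7. Over the 23 members with at least 50 unswitched cells, the IgD share and the median heavy chain UMIs had a Spearman rho of -0.685. The points share libraries, and depth enters both axes.

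For 10 of 19 members the mean log2 heavy chain UMI count was on 1 side of the other cells in 6 of 6 libraries, and 60.4% of the 53 IGHV genes met this rule, so members were not called more often than other genes. The other 9 members changed side between libraries. Among the 10, the mean was higher for IGHV1-15 (by 0.69 on the log2 scale), IGHV1-62-2 (0.56), IGHV1-54 (0.37) and IGHV1-75 (0.29). It was lower for IGHV1-61 (-0.75), IGHV1-42 (-0.70), IGHV1-18 (-0.61), IGHV1-39 (-0.53), IGHV1-52 (-0.46) and IGHV1-22 (-0.34). For IGHV1-15 the median was 14, 22, 15, 22, 18 and 17.5 UMIs in the WT dCLN, 5xFAD dCLN, WT sCLN, 5xFAD sCLN, WT iLN and 5xFAD iLN, and for IGHV1-61, at the other end of the 10, it was 4.5, 9, 6.5, 7, 8 and 5.

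Light chain UMIs of the same cells did not follow. By the same rule only IGHV1-74 was called (0.10 on the log2 scale), and 5.66% of the 53 genes were. Over 23 members the medians of light and heavy chain UMIs had a rho of -0.071. The pair IGHV1-4 and IGHV1-7, which share CDR2 and differ at 7 bases, both had a median of 4 heavy chain UMIs, the lowest of the set, with light chain medians of 37 and 31.5.

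**Figure D4:**
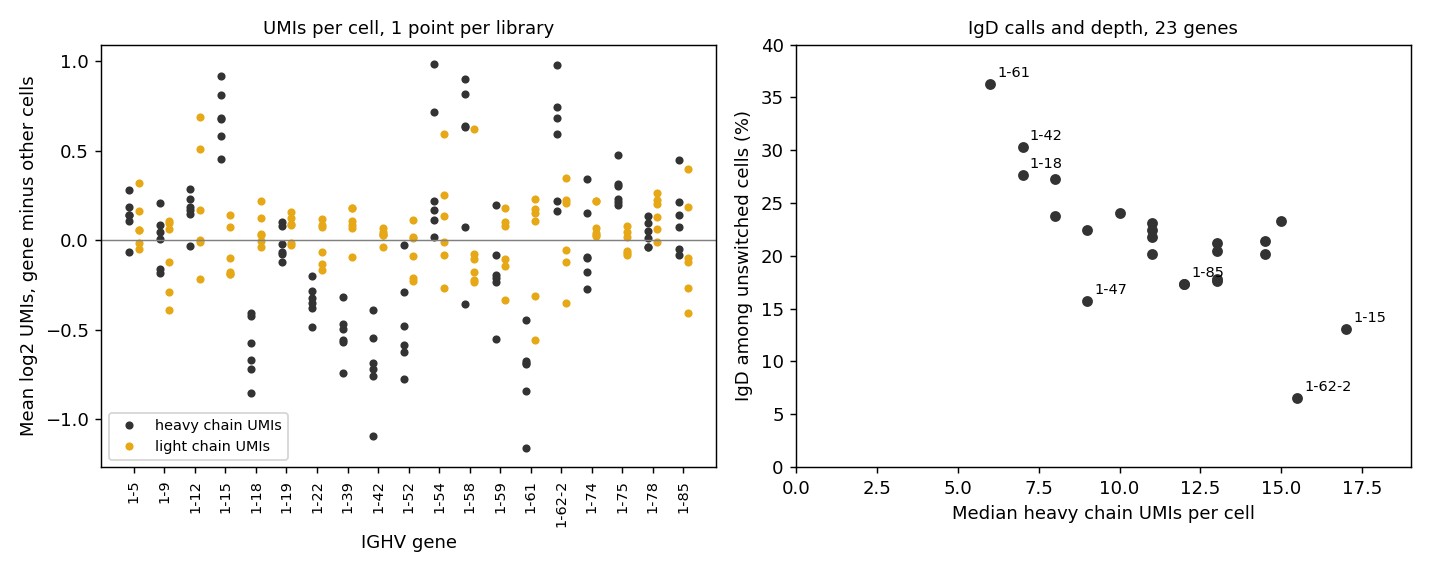
Left, mean log2 UMIs per cell of each gene minus that of all other cells in the library, for heavy and light chains, 1 point per library and 19 members. Right, IgD calls among unswitched cells (%) against median heavy chain UMIs for 23 members, from 36.3% at 6 UMIs (IGHV1-61) to 6.51% at 15.5 (IGHV1-62-2).

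The mean CDR3 of the set was 12.0 codons. It was 11.94, 12.07, 11.89, 12.07, 12.04 and 12.13 in the 6 libraries and shorter than in all other cells in each, with a mean difference of -0.119 codons (± 0.0957, SD, n = 6 libraries; exact p = 0.031, adjusted p = 0.125). In the 5xFAD sCLN and 5xFAD iLN the difference was only -0.0151 and -0.00256 codons. Against the 11 other IGHV1 genes the mean CDR3 of the set was longer in 5 of 6 libraries, by 0.0846 codons (± 0.0717; exact p = 0.0938, adjusted p = 0.170). Much of this excess came from IGHV1-62-2. With libraries pooled the mean was 12.01 codons in the set, 11.94 in the set without IGHV1-62-2 and 11.92 in the 11 genes. The range over cells was 4 to 23 codons.

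Among members with at least 100 cells IGHV1-62-2 had the longest CDR3, 13.99 codons on average, with 14.00, 15.04, 13.08, 13.76, 14.24 and 14.32 in the WT dCLN, 5xFAD dCLN, WT sCLN, 5xFAD sCLN, WT iLN and 5xFAD iLN. Each of these was above the mean of the whole set in every library. The mean difference from other cells was 1.98 codons ± 0.61 (SD, n = 6 libraries). The extra length was in the V part. Cells with a D call kept 12.4 bases of the V gene after the cysteine codon, where the other members kept 5.53, and the gene's 14 germline bases, printed above, compare with 6. N bases, added without a template, were fewer (6.29 against 7.38), and the D (11.3 and 11.2 bases) and J parts (13.0 and 12.8) were alike in size.

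Next among members of that size came IGHV1-19 with 12.45 codons, from 12.50, 12.85, 11.92, 12.30, 12.82 and 12.49, and IGHV1-39 with 12.32, from 12.35, 12.64, 12.47, 11.85, 12.09 and 12.39. The shortest of these were IGHV1-85 with 11.35 (11.27, 11.34, 10.61, 12.24, 10.60 and 12.00), IGHV1-78 with 11.56 (10.11, 12.04, 12.25, 11.74, 12.19 and 11.29) and IGHV1-9 with 11.59 (11.84, 11.61, 10.88, 11.73, 11.30 and 12.31). Both groups had values on either side of 12 codons. Only IGHV1-62-2 and IGHV1-5, at 11.73 codons and a difference of -0.38 (± 0.26), had 1 sign in 6 libraries among the 19 members. Over the 53 genes this share was 34%. Across 23 members the retained V bases and the mean CDR3 length had a rho of 0.526, and of 0.459 without IGHV1-62-2.

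**Figure D5:**
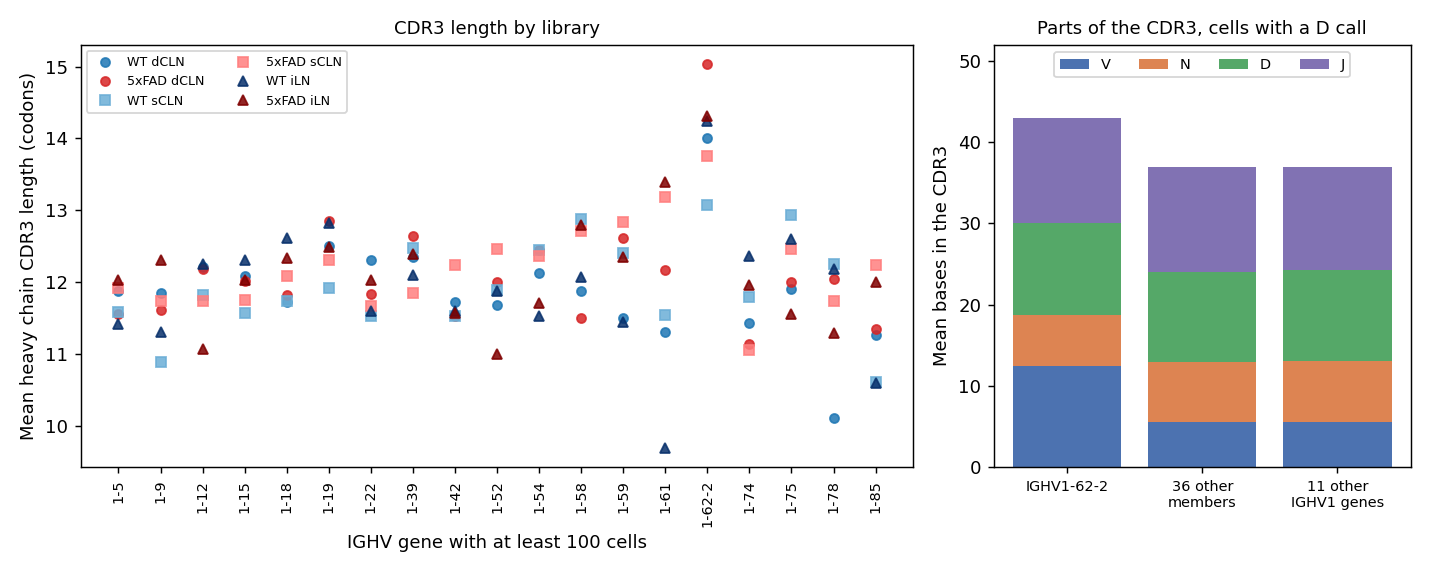
Left, mean heavy chain CDR3 length in codons for the 19 members with at least 100 cells, 1 point per library. Right, mean number of CDR3 bases from V, N, D and J in cells with a D call, where IGHV1-62-2 has 12.4 V bases and the other 36 members have 5.53.

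Junctions without any N base were rare in the set, at 51 of 4417 cells with a D call, and less frequent than in other cells of each library, at 1.15% and 1.77%, a mean difference of -0.620 percentage points (± 0.525, SD, n = 6 libraries; exact p = 0.031, adjusted p = 0.125). In the WT dCLN and WT sCLN the difference was only -0.00447 and -0.0631 points. Against the 11 other IGHV1 genes the set was lower in 4 of 6 libraries, by -0.202 points on average (± 0.605, SD; exact p = 0.469, adjusted p = 0.551). The J segments used were IGHJ2 in 36.4% of cells, IGHJ4 in 23.4%, IGHJ3 in 23.4% and IGHJ1 in 16.9%. Against all other cells IGHJ1 was lower in 6 of 6 libraries, 17.1% and 19.6% on average, a difference of -2.54 points (± 1.46, SD; exact p = 0.031, adjusted p = 0.125). IGHJ2 was higher in 5 of 6 by 3.90 points (± 3.17; exact p = 0.0625, adjusted p = 0.156). Against the 11 other IGHV1 genes the J differences were small, between -0.868 points for IGHJ2 and 1.19 for IGHJ3, and the smallest exact p was 0.0938.

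The use of J by single genes kept 1 sign about as often in the members as in all IGHV genes. IGHV1-18 used IGHJ2 in 24.3%, 27.5%, 30.6%, 21.1%, 18.5% and 14.6% of its cells in the WT dCLN, 5xFAD dCLN, WT sCLN, 5xFAD sCLN, WT iLN and 5xFAD iLN, below other cells in all 6, with a mean difference of -10.9 points. IGHV1-9 (by 7.57), IGHV1-59 (9.08) and IGHV1-5 (5.87) used it more than other cells in all 6. By the 1-sign rule these were 4 of 19 members for IGHJ2, where 22.6% of the 53 genes were called. For IGHJ1 the rule took IGHV1-9 (11.1% on average, a difference of -8.03 points) and 5.66% of all genes. For IGHJ3 it took IGHV1-62-2 (32.1%, higher by 9.58) and IGHV1-74 (28.2%, higher by 5.64), with 11.3% of all genes. For IGHJ4 it took IGHV1-15 (19.1%) and IGHV1-5 (19.2%), with differences of -6.03 and -5.89 points, again with 11.3% of all genes.

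The D segment was IGHD1-1 in 40.1% of the members' cells with a D call. By the 1-sign rule IGHD2-3 was higher than in other cells (8.77% and 8.32%, a difference of 0.45 points) and so was IGHD3-2 (4.39% and 3.52%, 0.87 points), 2 of 13 D genes or 15.4%.

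Light chains were read in the 4484 cells with exactly 1. They used 91 light chain V genes. The most frequent were IGKV10-96 with 225 cells (5.02%), IGKV6-15 with 178 (3.97%), IGKV1-117 with 170 (3.79%), IGKV1-110 with 140 (3.12%), and IGKV12-46 and IGKV14-111 with 123 each (2.74%). IGKV10-96 was among the 3 most frequent partners of 9 of the 10 most used members, from 4.04% of IGHV1-18 cells to 6.93% of IGHV1-5 cells, and IGHV1-22 was the exception. It was not particular to the set, at 5.66% of other cells, and was lower in members in 5 of 6 libraries. IGHV1-15 paired most with IGKV1-135, 6.88% (4.2 to 10.5), and IGHV1-19 with IGKV6-15, 6.99% (4.32 to 10.6). Cells outside the set used these at 2.89% and 3.22%. Each was picked as the most frequent of the 66 light chain V genes paired with IGHV1-15 or the 60 paired with IGHV1-19. A share picked in this way tends to exceed a background, and a preference was not tested. No single pair dominated a gene.

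Lambda chains were less frequent in the set. They were in 2.62%, 1.79%, 2.73%, 4.08%, 3.48% and 2.74% of the set's cells in the WT dCLN, 5xFAD dCLN, WT sCLN, 5xFAD sCLN, WT iLN and 5xFAD iLN. This was below other cells in all 6 libraries, 2.91% against 5.29% on average (-2.39 points ± 0.991, SD; exact p = 0.031, adjusted p = 0.125). Against the 11 other IGHV1 genes the share was lower in 5 of 6, with a mean difference of -1.13 points (± 1.15; exact p = 0.0625, adjusted p = 0.156). By the 1-sign rule 3 of 51 light chain V genes (5.88%) were called, and these were IGLV1 (2.42% against 4.04%), IGLV3 (0.116% against 0.695%, 5 cells in all) and, in the other direction, IGKV14-111 (2.75% against 2.02%). None of the 20 comparisons of the set passed after adjustment, where the smallest adjusted p was 0.125.

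Clones were cells of 1 library with the same V and J gene and junction length and similar junctions. The set had 250 clones of 527 cells, of which 229 had 2 cells, 16 had 3 and 5 had 4 or more. They held 15.8% of the set's cells in the WT dCLN, 8.30% in the 5xFAD dCLN, 12.6% in the WT sCLN, 12.2% in the 5xFAD sCLN, 5.71% in the WT iLN and 7.80% in the 5xFAD iLN, below the clones of the 11 other IGHV1 genes in each library (20.5%, 13.8%, 16.3%, 13.2%, 9.50% and 12.3%). The 11 genes held 5171 cells and the 37 members 4914, so each of the 11 had on average more cells among which similar junctions could meet. Whether this accounts for the lower shares of the set was not tested. Requiring the same light chain left 173 clones of 358 cells in the set, and the 11 genes were not counted in this way. Only 10 clones held a switched cell.

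The largest clones were small, and the largest of a library was not always a switched one. In the WT dCLN it was 4 IgM cells of IGHV1-18 and IGHJ3 with IGKV4-55, unmutated and with a median of 243 heavy chain UMIs. In the 5xFAD dCLN it was 4 IgG1 cells of IGHV1-18 and IGHJ2 with 1 junction and 3.06% to 3.40% mutation. In the WT sCLN 5 unmutated cells of IGHV1-22 shared a clone but had 4 junctions and 4 light chain junctions, and clones of 4 were found for IGHV1-52 and IGHV1-59, also with more than 1 light chain junction. In the 5xFAD sCLN 3 clones had 3 cells. These were IGHV1-42 (all IgG2c, IGKV4-72, 5.10% to 10.9% mutation), IGHV1-18 (all IgM, IGKV10-96) and IGHV1-39 (all IgM). The iLN libraries had 2 clones of 3 cells each, IGHV1-18 and IGHV1-74 in the WT and IGHV1-15 and IGHV1-52 in the 5xFAD, all unswitched.

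The other clones with a switched cell had 2 or 3 cells each. The WT dCLN held 3 IgG2b cells of IGHV1-78 with 6.55% to 7.59% mutation and 2 IgG2b cells of IGHV1-31. The WT sCLN held 2 pairs of IgG1 cells of IGHV1-19 with mean mutation of 9.56% and 10.2%, and pairs of IgG2b with IgG2c cells of IGHV1-15 and IGHV1-42. The 5xFAD dCLN held an IgM and an IgG1 cell of IGHV1-15 in 1 clone, and the WT iLN 2 IgA cells of IGHV1-9.

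One clone spanned 2 libraries with an identical heavy chain junction and the same light chain genes. It used IGHV1-7, IGHJ2 and IGKV5-39 and was found in 1 cell of the 5xFAD dCLN (4 heavy chain UMIs) and 1 of the 5xFAD iLN (45). Both cells were IgG2c and unmutated, had the same light chain junction and had different barcodes. Libraries shared between 4 and 35 cell barcodes pairwise over all cells. The shared junction, from the cysteine codon to the tryptophan codon, is shown because it is the only sequence that links nodes in the set, with the 6 bases of the V end after the cysteine codon in capitals.
IGHV1-7 clone: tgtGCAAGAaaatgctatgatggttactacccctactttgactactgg

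Cells with 100 or more heavy chain UMIs, read here as cells with high immunoglobulin output, numbered 20 of 4914 in the set and 48 of 12467 other cells, which are similar shares. The highest were an IgA cell of IGHV1-62-2 in the 5xFAD dCLN (11129 UMIs, 3.69% mutation), an IgA cell of IGHV1-75 in the WT sCLN (10152 UMIs, 5.10%) and an IgG1 cell of IGHV1-9 in the WT sCLN (6170 UMIs, unmutated). The 4 IgM cells of the IGHV1-18 clone in the WT dCLN, at 192 to 394 UMIs, were also among the 20.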

How the data were processed

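Receptor transcripts of single lymph node cells were sequenced after 5' capture, per the labels' protocols. The submitters' processing notes list Cell Ranger 6.0.1, Seurat 4.1.0 and mm10, without saying what each did. The germline set behind the gene calls is not given in the sources used here. The authors deposited 1 line per assembled contig, with UMI and read counts per contig, per the file headers. They also deposited V identity as a fraction and the length of the junction and its N parts in bases.

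Only cells with a single productive heavy chain entered, since barcodes with more, 2.59% to 5.62% of those with a heavy chain, may be doublets. The 6 libraries held 26533 to 96163 heavy chain UMIs in these cells, with medians of 9 to 12 per cell for members. V mutation was counted from the aligned sequences against the germline without gaps. CDR3 length is the junction less both anchor codons. Clones shared V gene, J gene and junction length, joined at a Hamming distance of up to 0.15.

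Intervals are exact Clopper-Pearson at 95%, and a count of 0 was given a limit of 3 counts. Genes were called apart between libraries where intervals did not overlap, for genes with at least 10 cells in 1 library. Over libraries, differences were tested with exact sign-flip tests and Benjamini-Hochberg adjustment over 20 comparisons. For single genes the rule was 1 sign in all 6 libraries, with at least 10 cells in each, since the exact test cannot pass adjustment over all genes. UMI measures, some cell filters for single genes and the settings without IGHV1-62-2 were added after seeing the data. The mixed library entered no comparison.

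Named genes are the 10 most used, those called between libraries, the 3 highest and lowest by CDR3 length, switched share and IgD share among members with at least 100 cells, members with fewer than 10 cells, the 5 most paired light chain V genes and the largest clones. The set and these lists were chosen with earlier results of these data known. The count of mutations was checked on 500 simulated sequences and erred in 0. Python 3.11.15, pandas 2.3.3, numpy 2.4.6, scipy 1.17.1 and matplotlib 3.10.9 were used. Alternatives varied the cell filters, minimum cells, the mutation measure and the libraries, 1 at a time.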

Additional observations from a re-analysis of the deposited data

How the results depend on the processing

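With 1 library per node and genotype, precision is limited by the number of libraries, and none of the comparisons of the set passed adjustment under the main settings. No paired analysis by replicate number was possible because each group has 1 library; libraries were paired by node or by shared cells instead. Leaving out a library leaves 5, whose smallest exact p is 0.0625, so no comparison can then reach 0.05.

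Leaving out each library in turn, the difference of the set from all other cells ranged from -0.142 to -0.0960 codons for CDR3 length and from -0.743 to -0.494 percentage points for junctions without N. For IGHJ1 it ranged from -2.92 to -2.22 and for lambda from -2.74 to -2.20. For IgD it ranged from -0.0840 to 0.680, turning negative without the WT sCLN. Against the 11 other IGHV1 genes, IgD ranged from -3.74 to -2.39, IGHJ1 from -0.398 to 0.249 and IGHJ4 from -0.557 to 0.123, with IGHJ1 turning positive without the WT sCLN or the 5xFAD iLN and IGHJ4 without the WT dCLN, the 5xFAD sCLN or the WT iLN.

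Under other cell filters, CDR3 length against all other cells was -0.114 codons with at least 3 heavy chain UMIs (exact p = 0.0938), -0.110 with identical barcodes counted once and -0.108 with each clone counted once (exact p = 0.0625 for both), and -0.115 in unswitched cells (exact p = 0.0938). Junctions without N differed by -0.594 points with at least 1 light chain (exact p = 0.0938), -0.687 with identical barcodes counted once and -0.630 with each clone counted once (exact p = 0.0625 for both). IGHJ2 was higher by 4.19 with at least 3 UMIs and IGHJ4 was at -2.38 with each clone counted once, both with an exact p of 0.031. Against the 11 genes, IGHJ1 turned to 0.00531 with identical barcodes counted once and to 0.0609 with each clone counted once, where IGHJ4 turned to 0.0930. IgD against the 11 genes was -2.55 without IGHV1-62-2 or with V calls of 1 gene only, and -3.32 at 5 to 20 UMIs, each with an exact p of 0.0625. Against all other cells IgD turned to -0.911 points at 5 to 20 UMIs. The causes were not tested.

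Counts of members by the 1-sign rule moved by more than 1.5 times in these settings. V calls of 1 gene only leave out IGHV1-62-2 and gave 1 for CDR3 length, 1 for IgD and 1 for IGHJ3. Cells of 5 to 20 UMIs gave 1 for IgD. A minimum of 20 cells gave 2 for the switched share, 1 for IGHJ3 and 0 for light chain UMIs. Identical barcodes counted once gave 2 for the switched share, 3 for IGHJ1 and 1 for IGHJ4, and each clone counted once gave 2, 2 and 1. A minimum of 30 cells left 0 members called in the iLN.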

Other observations

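A further library mixed the 3 node types and both genotypes, with no label that ties a cell to either. The genes of the set made up 26.4% of its cells (657 of 2488, 24.7 to 28.2). The switched share of these cells was 4.48% (3.02 to 6.36, 29 cells), the IgD share of unswitched cells 24.1%, the mean CDR3 12.0 codons and the lambda share 4.06%. IGHV1-34 was found in 5 of its cells and IGHV1-62-2 in 32. The mean mutation of switched members was 1.54%. In 6 of its cells the first V name was one that no other library held in the set, IGHV1-87 in 4 cells and IGHV1-18-60 and IGHV1-47-58 in 1 each.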
